A study of Mus musculus with 40 samples.

Results

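The Serpina3 cluster is a run of closely related serpin genes on mouse chromosome 12, and 7 of its genes, Serpina3c, Serpina3f, Serpina3g, Serpina3h, Serpina3i, Serpina3m and Serpina3n, are described here out of 39056 genes in the deposited count table. They were taken by symbol, from the rows of these genes in all 40 libraries. Serpins are protease inhibitors: a protease cleaves an exposed loop of the serpin and stays bound to it, the loop slots into a sheet of the serpin itself, and the protease is dragged along and distorted. Mice carry many copies where humans have SERPINA3 (alpha-1-antichymotrypsin), a secreted acute phase protein, and the copies differ in this loop and so in the proteases they can hold. In the brain Serpina3n is best known as a gene of reactive astrocytes and of disease-associated oligodendrocytes, while Serpina3g is known as an intracellular serpin of T cells and blood progenitors.

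The libraries are bulk RNA sequencing of developing oligodendrocytes, the glial cells that form myelin, from wild-type C57BL/6 pups aged 6 to 7 days. Progenitors were purified on antibody-coated plates, expanded, and allowed to differentiate for 12 to 14 h before the plates were randomised. Per the labels the tissue is whole brain, while the growth protocol names cortices. The 10 groups of 4 libraries were untreated cells at 1, 8, 24 and 48 h, cells in 200 U/ml IFN-gamma (interferon-gamma, which T cells and natural killer cells secrete) for 1, 8, 24 and 48 h, and cells given thapsigargin, a blocker of the calcium pump of the endoplasmic reticulum, at a labelled 200 uM for 1 and 8 h. All groups share the labelled genotype, strain, age and culture protocol.

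Library depth ran from 13165483 to 22651092 reads on genes. After removal of genes with few reads, 15135 were tested. Whether replicates are separate cultures or animals is not labelled, so a p-value here sets a difference only against the scatter of these libraries, which may be technical. In 10 of 40 libraries the summed level of 4 Y-linked genes was low, between 0.656 and 29.6 CPM against 144.1 to 424.1 CPM in the others. These were 8 of 16 IFN-gamma libraries, 2 in each group, and 2 of 8 thapsigargin libraries, and none of 16 untreated ones. Of the low pair in each IFN-gamma group, 1 library was at 0.656 to 1.15 CPM and the other at 6.74 to 8.18 CPM. Whether libraries of different times share a culture is not labelled. Treatment and Y-linked level are thus partly confounded in every comparison of treated with untreated cells. What set these levels was not tested. The second IFN-gamma 1 h library had 28.3% of reads in genes resembling ribosomal RNA, against 0.584 to 9.67% in the others. The summed level of 10 oligodendrocyte lineage markers was 6445 to 6862 CPM in untreated cells at 1 h, against 388.6 to 465.8 CPM for 10 astrocyte markers and 6.85 to 8.94 CPM for 12 microglia markers.

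In the GENCODE M21 annotation of GRCm38, 6 of the 7 genes lie on the plus strand of chromosome 12. They are Serpina3f (chr12:104214544-104221129), Serpina3g (chr12:104236245-104241939), Serpina3h (chr12:104247905-104253669), Serpina3i (chr12:104263122-104269372), Serpina3m (chr12:104338486-104394257) and Serpina3n (chr12:104406729-104414329). Serpina3c (chr12:104146382-104153870) is on the minus strand. Serpina3h is annotated as a transcribed unprocessed pseudogene, and the others as protein coding. The annotated span of Serpina3m overlaps Serpina3k and Serpina3l-ps on the same strand.

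The bases upstream of 4 members with unlike responses to IFN-gamma (below) are shown, since they can be aligned along most of their length. Serpina3h, which was also called higher under IFN-gamma, and Serpina3m had no RefSeq window and were not examined. Whether the motif letters bear on these responses was not tested. Each is the 250 bases before a RefSeq transcript start, from GRCm38.p6, on the plus strand: chr12:104214294-104214543 for Serpina3f, chr12:104235897-104236146 for Serpina3g, chr12:104262872-104263121 for Serpina3i and chr12:104406458-104406707 for Serpina3n. In Serpina3f, Serpina3g and Serpina3i the capitals mark matches to TTCNNNGAA, the letters of the gamma-activated sequence (GAS), a motif of IFN-gamma-responsive promoters. In Serpina3f the capitals also cover a match to GAAANNGAA, a short form of the interferon-stimulated response element. In Serpina3n the capitals mark the bases that align with the Serpina3i match and are no match.
Serpina3f: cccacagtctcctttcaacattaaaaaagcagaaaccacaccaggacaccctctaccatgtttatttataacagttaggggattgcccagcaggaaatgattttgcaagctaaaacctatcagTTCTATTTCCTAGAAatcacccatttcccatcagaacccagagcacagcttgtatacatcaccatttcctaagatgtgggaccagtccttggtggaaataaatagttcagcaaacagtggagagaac
Serpina3g: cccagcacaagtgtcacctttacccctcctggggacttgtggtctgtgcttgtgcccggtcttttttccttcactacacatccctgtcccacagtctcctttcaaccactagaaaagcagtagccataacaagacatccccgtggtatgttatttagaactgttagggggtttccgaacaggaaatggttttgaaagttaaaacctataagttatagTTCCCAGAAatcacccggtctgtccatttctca
Serpina3i: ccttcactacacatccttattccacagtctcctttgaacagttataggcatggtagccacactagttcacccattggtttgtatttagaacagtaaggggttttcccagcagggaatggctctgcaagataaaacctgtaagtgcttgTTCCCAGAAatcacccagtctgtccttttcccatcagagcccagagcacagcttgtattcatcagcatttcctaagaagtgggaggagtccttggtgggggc
Serpina3n: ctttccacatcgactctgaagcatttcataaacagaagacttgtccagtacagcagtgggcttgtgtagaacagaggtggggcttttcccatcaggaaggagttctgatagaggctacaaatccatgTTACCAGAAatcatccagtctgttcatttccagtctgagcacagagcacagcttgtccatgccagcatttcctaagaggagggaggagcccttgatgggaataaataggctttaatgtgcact

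Both motifs were searched on both strands of RefSeq windows of 300 bases, from 250 before to 50 after a start. TTCNNNGAA reads the same on both strands and was counted once per place. It occurred in 8.3% of 32851 such windows (27025 genes), and GAAANNGAA in 8.56%. Serpina3f, Serpina3g and Serpina3i each held 1 match to TTCNNNGAA, and Serpina3n and Serpina3c held none. The Serpina3f match, TTCCTAGAA, began 121 bases before the start used above and 210 bases before a further RefSeq start of this gene. In Serpina3i the match TTCCCAGAA began 102 bases before it. In Serpina3g the same letters began 33 bases before the RefSeq start, and 131 bases before the GENCODE start, which lies 98 bases further on. The second motif matched only in Serpina3f among the 5 members with a window, as TTCTATTTC on the plus strand (GAAATAGAA on the other), and shares its last bases with the Serpina3f match to the first motif.

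The windows could be aligned with each other along most of their length: Serpina3i shared 83.6% of 268 aligned bases with Serpina3f, 83.3% of 228 with Serpina3g, 80.9% of 272 with Serpina3c and 77.3% of 269 with Serpina3n. Counted from 1 at the first base of the Serpina3i match, Serpina3g had no substitution there and Serpina3f had C5T, in the free middle bases of the motif. Serpina3n and Serpina3c both had C3A, which gives TTACCAGAA. A motif match is a description of letters; binding was not measured in these libraries.

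Because the genes are near-copies, reads can be hard to place. Identity between the longest transcripts was taken over the stretch that aligned, which differed in length between pairs. It was 93.9% of 1048 positions for Serpina3h and Serpina3i, 93.8% of 837 for Serpina3g and Serpina3h and 93.2% of 1046 for Serpina3f and Serpina3h. For Serpina3f it was 88.6% of 1751 with Serpina3g, 87.7% of 1981 with Serpina3i and 78.5% of 1975 with Serpina3n. Of all 31-base words in a transcript, the share found in no other gene was 78.4% for Serpina3n, 73.3% for Serpina3i, 72.6% for Serpina3f, 69.9% for Serpina3g and 56.5% for Serpina3h. How the authors treated reads that fit several copies is not given in the sources used here. Counts of Serpina3g and Serpina3h are therefore reported as uncertain wherever the far more abundant Serpina3f and Serpina3i rose.

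Serpina3n was the abundant member in every group. In untreated cells at 1 h the 4 libraries gave 492.0, 461.9, 448.1 and 488.0 CPM (counts scaled to a common library size). In IFN-gamma cells at 8 h they gave 628.6, 625.5, 546.5 and 677.4 CPM, against 572.0, 612.4, 405.8 and 571.4 CPM untreated at the same time. These ranges overlap. Untreated cells at 48 h gave the highest mean, 980.8 CPM ± 139.6 (SD, n = 4), and thapsigargin cells at 8 h the lowest, 181.0 ± 10.3 CPM. Between them, in rising order of the mean, came thapsigargin 1 h, untreated 1 h, IFN-gamma 1 h, untreated 8 h, IFN-gamma 24 h, IFN-gamma 8 h, untreated 24 h and IFN-gamma 48 h. Every group in this order overlapped the next in range, except that all thapsigargin 8 h libraries lay below all thapsigargin 1 h libraries. Serpina3n ranked 239 of 15135 tested genes by mean CPM in untreated cells at 1 h and 60 at 48 h.

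**Figure D1:**
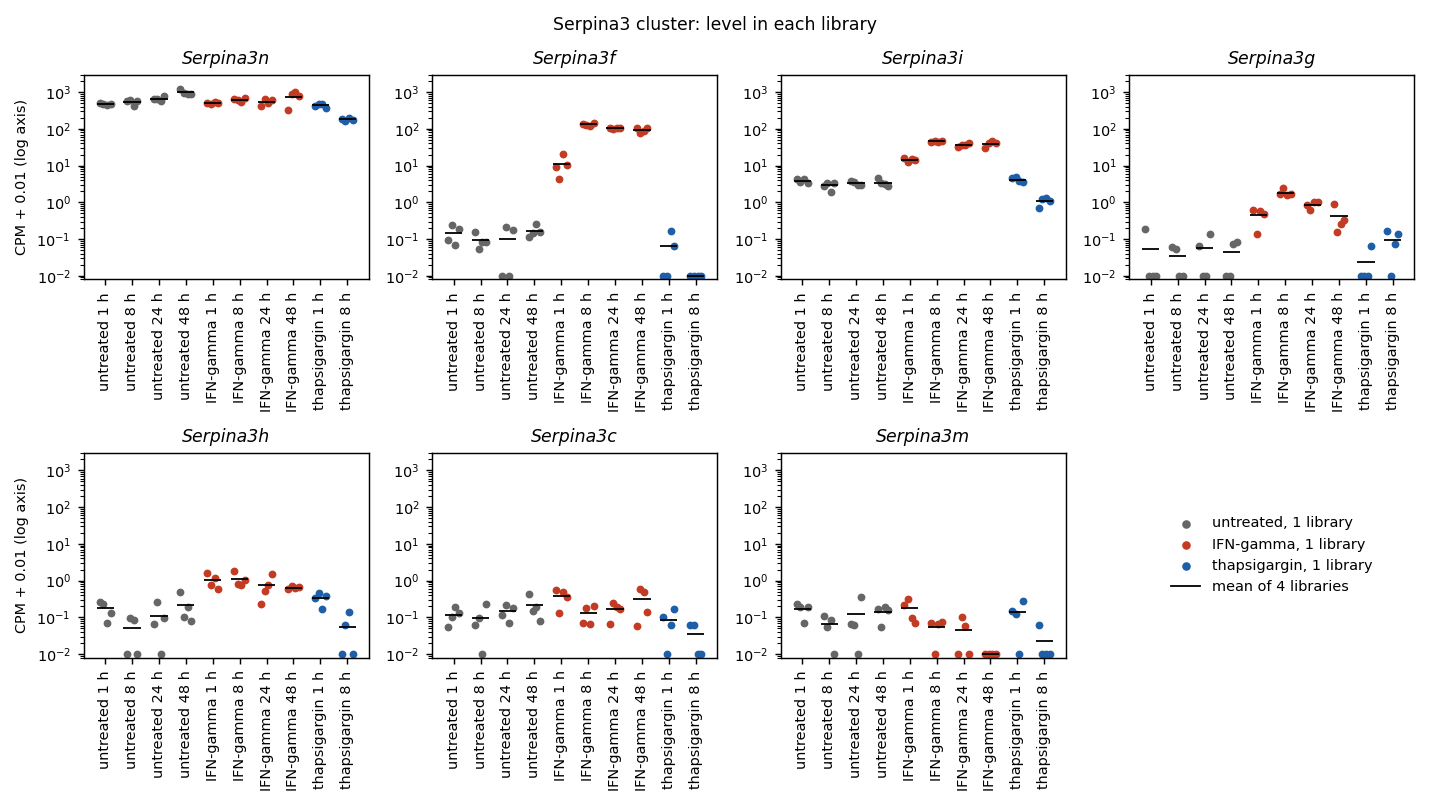
Level of each of the 7 genes in every library, as CPM plus 0.01 on a log axis, by group; each point is 1 library and each line the mean of 4. Serpina3f rises from at most 0.246 CPM untreated to between 76.1 and 140.4 CPM at 8 to 48 h of IFN-gamma, while Serpina3n stays between 334.2 and 1189 CPM in every group but thapsigargin 8 h.

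Serpina3f went from almost no reads to one of the better expressed genes under IFN-gamma. Untreated libraries held 2, 5, 1 and 3 reads at 1 h, and no untreated library held more than 5 at any time. After 1 h of IFN-gamma the 4 libraries held 178, 67, 466 and 177 reads (8.94, 4.18, 20.1 and 10.5 CPM), with the ribosomal-RNA-rich library the lowest. At 8 h they held 2284, 2334, 2230 and 2187 reads (133.0, 131.0, 122.9 and 140.4 CPM). All IFN-gamma libraries lay above all untreated ones at every time. The log2 fold change against untreated was 6.25 ± 0.44 (SE) at 1 h, 10.48 ± 0.43 at 8 h, 9.90 ± 0.41 at 24 h and 9.20 ± 0.40 at 48 h, with edgeR adjusted p from 5.35e-12 at 1 h to 9.5e-20 at 8 h. These sizes rest on few untreated reads. At 8 h the group sums were 9035 reads against 6, a depth-scaled ratio of 1536 with a 95% counting interval of 705.3 to 4186. By mean CPM Serpina3f ranked 14891 of 15135 tested genes in untreated cells at 8 h and 1807 in IFN-gamma cells.

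Serpina3i was low but measurable without treatment and rose in every IFN-gamma group. Untreated cells at 8 h gave 2.86, 3.33, 1.92 and 3.43 CPM. IFN-gamma cells gave 16.53, 12.62, 14.98 and 14.29 CPM at 1 h and 44.5, 46.9, 42.8 and 47.6 CPM at 8 h. The 4 IFN-gamma groups did not overlap any untreated group. Log2 fold changes against untreated were 1.93 ± 0.15 at 1 h (adjusted p = 6.57e-12), 3.96 ± 0.15 at 8 h (adjusted p = 1.04e-21), 3.48 ± 0.15 at 24 h and 3.52 ± 0.15 at 48 h. At 24 h the libraries spanned 31.06 to 40.9 CPM and at 48 h 29.9 to 46.4 CPM, so the later groups overlapped each other.

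Serpina3g and the pseudogene Serpina3h were called higher at all 4 times from far fewer reads. Serpina3g had 28, 43, 29 and 26 reads in the IFN-gamma 8 h libraries and 1, 1, 0 and 0 in the untreated ones. The depth-scaled ratio of the sums was 64.2, with a counting interval of 17.4 to 536.4. The log2 fold change was 3.01 ± 0.75 at 1 h, 5.71 ± 0.71 at 8 h, 3.91 at 24 h and 3.59 at 48 h. At 48 h the 4 IFN-gamma libraries held 19, 3, 4 and 5 reads, so the first carried most of them. Serpina3h had 32, 12, 27 and 10 reads after 1 h of IFN-gamma and 32, 14, 14 and 16 after 8 h, against 6, 5, 1 and 2 and then 0, 2, 1 and 0 untreated. Its log2 fold change was 2.53 at 1 h, 4.50 at 8 h, 2.81 at 24 h and 1.57 at 48 h.

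Several of these calls were lost under alternatives, often with folds of like size. At 1 h the Serpina3g call (adjusted p = 0.0271) was lost when any of untreated replicates 2, 3 or 4 or IFN-gamma replicates 1, 3 or 4 was left out, with log2 fold changes from 2.6 to 2.995 and adjusted p from 0.0509 to 0.139. The Serpina3h call at 1 h (adjusted p = 0.00666) was lost without IFN-gamma replicate 1 (2.25, adjusted p = 0.0511). It was also lost in library numbers 1 to 20 alone (2.26, 0.181) and in 21 to 40 alone (3.23, 0.117). At 24 h, in library numbers 1 to 20 alone, Serpina3g gave 4.45 (adjusted p = 0.0735) and Serpina3h 1.22 (0.484), and Serpina3h libraries overlapped untreated ones. At 48 h the Serpina3h call (adjusted p = 0.032) was lost without any of 3 untreated libraries (replicates 2, 3 and 4) or 3 IFN-gamma libraries (replicates 1, 2 and 4), with log2 fold changes from 1.28 to 1.63 and adjusted p from 0.0512 to 0.0977. This call was also lost in library numbers 1 to 20 alone (1.245, 0.268), in 21 to 40 alone (2.21, 0.0647) and with no filter (1.58, 0.0666). Without the 10 libraries of low Y-linked level, Serpina3g gave 3.27 at 1 h (adjusted p = 0.0513) and 2.73 at 48 h (0.0701), and Serpina3h gave 2.62 (0.0575) and 1.69 (0.0867).

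The ratio of these reads to those of Serpina3f was not constant. Serpina3g reads were 3.94% of Serpina3f reads after 1 h of IFN-gamma, 1.40% after 8 h, 0.820% after 24 h and 0.447% after 48 h. Serpina3h reads were 9.12% of Serpina3f reads at 1 h and 0.841% at 8 h, and 7.25% and 2.44% of Serpina3i reads. Serpina3h itself stood at 1.03 ± 0.45 CPM at 1 h and 1.11 ± 0.51 CPM at 8 h, a log2 difference of 0.09 (95% interval -0.79 to 0.96), while Serpina3f went from 10.9 ± 6.7 to 131.8 ± 7.2 CPM. How many of the Serpina3g and Serpina3h reads came from other copies was not tested.

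Serpina3c and Serpina3m did not pass the filter and were not tested. Serpina3c, a serpin best known from adipose tissue and pancreas, held at most 12 reads in any library. Its group sums ran from 2 reads (thapsigargin 8 h) to 30 reads (IFN-gamma 1 h). Against 8 untreated reads at 1 h, the latter is a depth-scaled ratio of 3.88 (counting interval 1.74 to 9.80), with overlapping libraries. The ratios at 8, 24 and 48 h of IFN-gamma were 1.36, 1.16 and 1.48, with counting intervals that hold 1. Serpina3m held at most 8 reads in a library and 0 in all 4 IFN-gamma 48 h libraries, which allows up to 0.0406 CPM from 3 reads over the group. Serpina3a, Serpina3b, Serpina3j, Serpina3k and the pseudogenes Serpina3d-ps, Serpina3e-ps and Serpina3l-ps summed to between 7 and 50 reads each over all 40 libraries. Most of the 50 were Serpina3e-ps reads under IFN-gamma, with 5, 17, 8 and 10 at 1, 8, 24 and 48 h against 1, 0, 4 and 5 untreated. The IFN-gamma 8 h libraries held 2 to 6 of them each, and the thapsigargin groups 0. The 14 genes listed from the other clade A serpins gave none that passed the filter.

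Of the 7 members, Serpina3f, Serpina3g, Serpina3h and Serpina3i were called higher in IFN-gamma cells at each time, Serpina3n at none, and Serpina3c and Serpina3m were not tested. Serpina3f, Serpina3g and Serpina3h passed the filter only through the IFN-gamma groups, since no other library held more than 9 of their reads, so nothing is read from the number of members called. Among all 15135 tested genes the share called higher was 1.08% at 1 h, 13.1% at 8 h, 12.6% at 24 h and 16.9% at 48 h. The share called lower was 0.211% at 1 h, 12.1% at 8 h, 10.5% at 24 h and 19.9% at 48 h. Serpina3n gave 0.10 at 1 h (adjusted p = 0.945), 0.20 at 8 h (0.475), -0.29 at 24 h (0.258) and -0.39 at 48 h (0.0918). Its 95% intervals were -0.17 to 0.57 at 8 h and -0.76 to -0.02 at 48 h. Leaving out the third IFN-gamma library at 48 h gave -0.55 and a call (adjusted p = 0.0201), and leaving out the 10 libraries of low Y-linked level gave -0.22 (0.268). In bulk samples fewer cells of a type and less RNA per cell cannot be told apart.

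**Figure D2:**
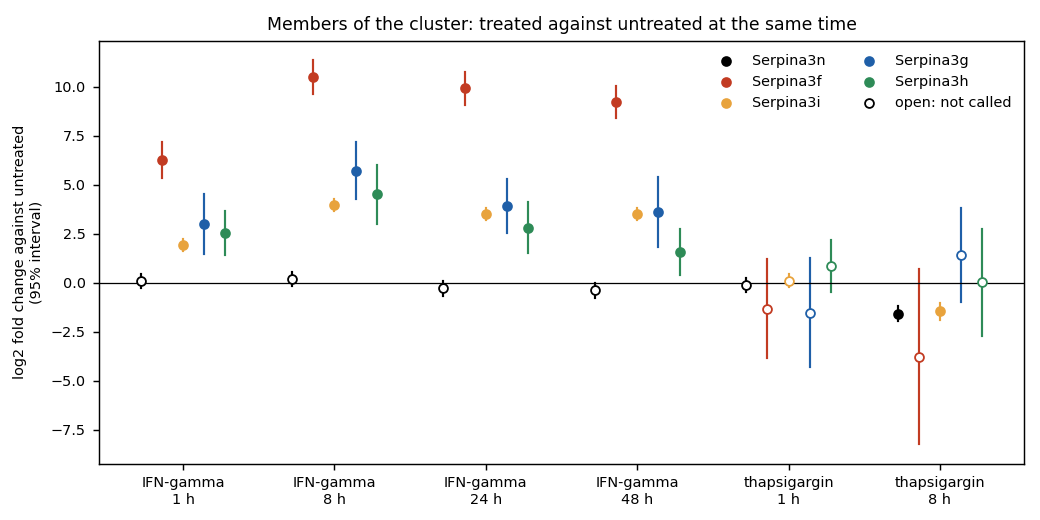
Log2 fold change of the 5 tested members against untreated cells of the same time, with 95% intervals; filled points were called at an adjusted p under 0.05 and open ones were not. Serpina3f reaches 10.48 after 8 h of IFN-gamma, where Serpina3n is at 0.20, and after 8 h of thapsigargin Serpina3i and Serpina3n lie near -1.5.

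The first 8 h of IFN-gamma held most of the rise. From 1 to 8 h of IFN-gamma 3 members were called higher (17.6% of all genes): Serpina3f by 3.57 ± 0.24 in log2, Serpina3g by 2.00 ± 0.44 and Serpina3i by 1.64 ± 0.13. The part of this beyond the untreated time course, an interaction, was called for 2 members (7.39% of all genes called higher), Serpina3f at 4.24 ± 1.25 (adjusted p = 0.0205) and Serpina3i at 2.03 ± 0.21 (adjusted p = 2.88e-09). The Serpina3f interaction was not called without untreated 1 h replicate 2 (adjusted p = 0.127) or replicate 4 (0.0581).

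After 8 h neither edgeR nor DESeq2 called any member as changed between successive IFN-gamma groups. The unadjusted 95% interval left out 0 for 2 from 8 to 24 h (Serpina3g and Serpina3i) and 2 from 24 to 48 h (Serpina3g and Serpina3n). From 8 to 24 h, where 9.05% of all genes were called in either direction, Serpina3f gave -0.35 ± 0.21 (adjusted p = 0.351) although its libraries at 24 h, 96.2 to 108.0 CPM, all lay below those at 8 h. In a fit on those groups alone, 3 members were called lower: Serpina3f at -0.35 (adjusted p = 0.00227), Serpina3g at -1.10 (0.0109) and Serpina3i at -0.32 (0.0335). From 24 to 48 h 14.0% of all genes were called and no member was. Leaving out the first IFN-gamma 48 h library gave 2 calls, Serpina3g at -1.85 (adjusted p = 0.00939) and Serpina3n at 0.71 (9.49e-05), and leaving out the second IFN-gamma 24 h library gave Serpina3n at 0.58 (0.0392). The IFN-gamma effect at 24 h against 8 h was called in 1.34% of genes and that at 48 h against 24 h in 1.68%, in either direction. Neither edgeR nor DESeq2 called any of the 5 members in these. In the first, the unadjusted 95% interval left out 0 for Serpina3i alone (-0.48 ± 0.21).

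Summed over the 7 genes, the level was 477.0 ± 21.1 CPM in untreated cells at 1 h and 532.6 ± 29.4 CPM after 1 h of IFN-gamma. At 8 h it was 543.6 ± 92.5 CPM untreated and 799.9 ± 63.5 CPM with IFN-gamma. Serpina3n made up 99.1% of these reads in untreated cells at 1 h and 99.4% at 8 h. After IFN-gamma its share was 94.9% at 1 h, 77.4 ± 0.7% at 8 h, 78.9 ± 3.5% at 24 h and 82.7 ± 8.2% at 48 h. Serpina3f took 16.5 ± 0.5% and Serpina3i 5.70 ± 0.25% at 8 h. The spread at 48 h came with the first library, where Serpina3n was at 334.2 CPM and took 70.9%, and the other 3 libraries were at 893.7, 998.0 and 772.2 CPM.

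**Figure D3:**
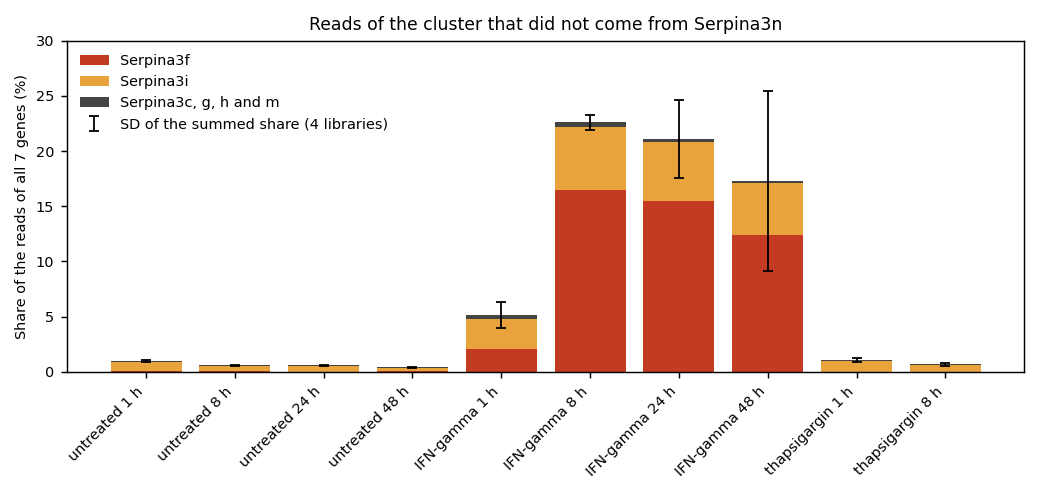
Share of the reads of all 7 genes that did not belong to Serpina3n, by group, as stacked means of 4 libraries; the bar gives the SD of the summed share. The share is under 1.1% in untreated and thapsigargin groups, and Serpina3f at 16.5% and Serpina3i at 5.70% make up nearly all of it at 8 h of IFN-gamma.

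The authors' isoform table, in which reads are divided among transcripts, was used as a check and to set genes side by side per length. Summed per gene, its estimated counts over the 4 IFN-gamma 8 h libraries were 1.06 times the gene counts for Serpina3f, 1.02 times for Serpina3i, 1.17 times for Serpina3g, 1.07 times for Serpina3h and 1.06 times for Serpina3n. Library totals were larger in the isoform table, 15200443 to 31479728 against 13165483 to 22651092, so 1 is not the baseline of these ratios. At 48 h it gave Serpina3g 42.3 estimated reads with IFN-gamma and 11.5 untreated, against 31 and 2 gene reads. The Serpina3g fold there depends on which table is used. As estimated CPM per kilobase of transcript, Serpina3n stood at 254.7 ± 28.9 at 8 h of IFN-gamma, Serpina3f at 50.1 ± 4.3 and Serpina3i at 22.4 ± 2.5. In untreated cells at 8 h these levels were 248.3 ± 48.2, 0.0504 ± 0.0171 and 1.55 ± 0.44. Per length Serpina3i was the higher of this pair before IFN-gamma. At 1 h Serpina3f stood at 4.29 ± 2.92 and Serpina3i at 7.44 ± 2.43, with overlapping libraries, and at 8 h Serpina3f was the higher. These levels add up the transcripts of a gene, each over its own length. Of the Serpina3i reads at 1 h, 208.9 were given to Serpina3i-202 (701 bases) and 931.4 to Serpina3i-201 (2200 bases). The short transcript therefore weighs more than its reads, and the order of the genes at 1 h without it was not tested.

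**Figure D4:**
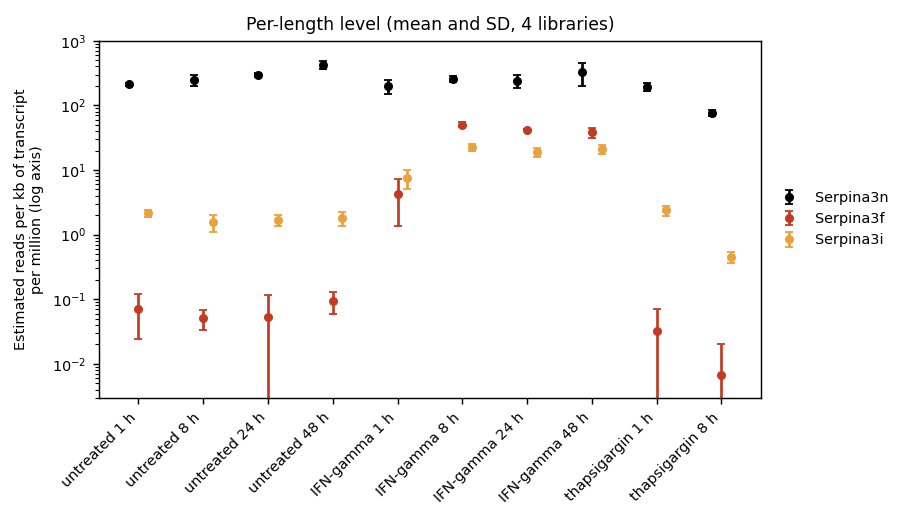
Estimated CPM per kilobase of transcript of Serpina3n, Serpina3f and Serpina3i by group, on a log axis, as mean and SD of 4 libraries from the isoform table; error bars that reach 0 run off the axis. The mean of Serpina3f is below that of Serpina3i at 1 h of IFN-gamma (4.29 against 7.44), above it from 8 h, and below that of Serpina3n in every group. Each transcript is taken over its own length, so the short Serpina3i-202 weighs more than its reads.

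The isoform table also divides each gene among its transcripts. All estimated Serpina3n reads were given to its 1 annotated transcript. Serpina3f reads went mainly to the protein-coding transcript Serpina3f-202, 81.2 ± 3.9% at 1 h of IFN-gamma and 93.07 ± 1.45% at 8 h. A second protein-coding transcript, Serpina3f-203, took 18.2 ± 4.8% at 1 h and 6.08 ± 1.06% at 8 h, with ranges that do not overlap, going from 144.9 to 584.8 estimated reads over the 4 libraries while Serpina3f-202 went from 766.2 to 8949. The Serpina3i transcript with a retained intron, Serpina3i-202, took 17.1 ± 2.6% of the gene in untreated cells at 1 h, 18.02 ± 1.95% after 1 h of IFN-gamma and 15.2 ± 0.5% after 8 h. After 8 h of thapsigargin it took 2.08 ± 3.56%, from 1.37 of 80 estimated reads, against 16.6 ± 9.9% untreated at 8 h. The ranges, 0 to 7.38% and 6.27 to 27.6%, overlap, and only 33.98% of the words of this transcript occur in no other gene.

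The members that untreated cells expressed, Serpina3n and Serpina3i, were lower after 8 h of thapsigargin. At 1 h none of the 5 was called by edgeR (8.79% of all genes in either direction) or DESeq2, and no unadjusted 95% interval left out 0. Serpina3i libraries at 4.50, 4.75, 3.69 and 3.47 CPM overlapped the untreated ones. At 8 h Serpina3i and Serpina3n were called lower (31% of all genes). Serpina3n libraries gave 185.4, 168.1, 192.1 and 178.5 CPM, all below the untreated 405.8 to 612.4 CPM, and fell by 1.58 ± 0.19 in log2 (adjusted p = 4.08e-09). Serpina3i gave 0.708, 1.23, 1.29 and 1.05 CPM, all below the untreated ones, and fell by 1.46 ± 0.21 (adjusted p = 1.95e-07).

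The thapsigargin effect at 8 h was lower than that at 1 h for both genes (24.8% of all genes were called lower in this interaction). It was -1.47 ± 0.26 for Serpina3n (adjusted p = 1.33e-05) and -1.55 ± 0.26 for Serpina3i (adjusted p = 7.7e-06). Serpina3f had 0 reads in all 4 thapsigargin 8 h libraries and 3, 1, 1 and 1 untreated, and was not called by edgeR (adjusted p = 0.138), though DESeq2 called it (-2.98, adjusted p = 0.0335). Serpina3g and Serpina3h summed to 6 and 3 reads in thapsigargin cells at 8 h, against 2 and 3 untreated. At 8 h of thapsigargin the 10 oligodendrocyte lineage markers summed to 2875 to 3466 CPM against 6758 to 8034 CPM untreated, and the 10 astrocyte markers to 229.6 to 277.6 CPM against 375.1 to 499.0 CPM. The 9 neuron markers summed to 207.1 to 226.6 CPM against 73.2 to 82.8 CPM. The part of these shifts in the Serpina3 values was not tested.

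Set directly against thapsigargin, IFN-gamma cells had Serpina3f, Serpina3g, Serpina3h and Serpina3i called higher at 1 h (1.72% of all genes), and these and Serpina3n at 8 h (31.5%). As above, nothing is read from the number, since 3 of them were tested only through their IFN-gamma reads. These comparisons reuse the libraries above, and the IFN-gamma and thapsigargin comparisons at one time share their untreated libraries. Serpina3f differed by 14.26 in the fit, a size set by the 0 thapsigargin reads, and Serpina3i by 5.42 ± 0.18. Serpina3n was higher by 1.77 ± 0.19 (adjusted p = 2.84e-10), with 546.5 to 677.4 CPM against 168.1 to 192.1 CPM. At 1 h the member not called was Serpina3n, at 0.20 (adjusted p = 0.688). The Serpina3h call at 1 h (1.66, adjusted p = 0.037) was lost without any of thapsigargin replicates 1, 3 or 4 or IFN-gamma replicates 1 or 3, with adjusted p from 0.0805 to 0.169.

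Without treatment, Serpina3n was the only tested member that edgeR called with time in culture. At 8 h against 1 h edgeR and DESeq2 called none of the 5 (6.93% of all genes in either direction). The unadjusted 95% interval left out 0 for Serpina3i alone, at -0.40 ± 0.17. At 24 h Serpina3n was higher by 0.49 ± 0.18 (adjusted p = 0.0387, 13.9% of genes called higher). This call was lost when any of 5 libraries was left out (replicates 1, 2 and 3 at 1 h, and 2 and 4 at 24 h), with adjusted p from 0.0502 to 0.127. At 48 h it was higher by 1.05 ± 0.18 (adjusted p = 6.9e-06, 31.9% of genes called higher), with libraries at 1189, 931.4, 900.0 and 902.8 CPM, all above the 448.1 to 492.0 CPM at 1 h. Serpina3i, Serpina3f, Serpina3g and Serpina3h gave -0.16, 0.13, -0.71 and 0.24 at 48 h. In the same groups the oligodendrocyte lineage markers summed to 9465 to 16630 CPM at 48 h against 6445 to 6862 CPM at 1 h, and the 10 astrocyte markers to 373.5 to 481.7 CPM against 388.6 to 465.8 CPM. Within that list the means moved both ways: Gfap went from 5.77 to 48.6 CPM and Aqp4 from 2.16 to 24.1 CPM, while Sox9 went from 79.1 to 16.3 CPM and Slc1a3 from 116.7 to 83.07 CPM. Their part in the Serpina3n level was not tested.

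Other genes were read from lists chosen for the biology of these serpins. Their counts stand beside the shares of all genes given above for each time of IFN-gamma. Of 24 genes of JAK-STAT, interferon regulatory and C/EBP signalling, all tested, 11 were higher and 1 lower at 1 h of IFN-gamma and 15 higher and 4 lower at 8 h (13.1% and 12.1% of all genes), with a median log2 fold change of 0.27 and 1.07. Irf1, an interferon-induced transcription factor, rose by 4.63 ± 0.13 at 1 h and 5.38 ± 0.14 at 8 h. Irf8, of the same factor family, rose by 7.21 at 48 h and the feedback inhibitor Socs1 by 7.69 at 24 h.

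The next genes are tied to Serpina3n in other settings. Stat3, the main factor of acute phase induction, was not called at 1 h (0.09, adjusted p = 0.505) and rose by 0.67 ± 0.04 at 8 h. Socs3, a STAT3 target, rose by 0.98 ± 0.16 at 1 h. Cebpd, an acute phase factor, gave 0.29 at 1 h (adjusted p = 0.876) and 1.08 ± 0.37 at 8 h (0.0265). Of 12 tested genes of the acute phase and reactive glia list (17 listed), 7 were higher and none lower at 8 h, with Cxcl10, a chemokine, at 10.21 ± 1.04, Osmr, a receptor for oncostatin M, at 1.66 and complement gene C4b at 3.20 ± 0.20. Timp1, a metalloprotease inhibitor, rose by 1.5 at 48 h. Gfap, an intermediate filament of reactive astrocytes, fell by 0.94 ± 0.29 at 48 h.

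Of 10 tested genes reported with Serpina3n in disease-associated oligodendrocytes (12 listed), 2 were higher at 1 h, 8 higher and 1 lower at 8 h, and 6 higher and 1 lower at 48 h. Their median was 4.71 at 48 h. Psmb9, an immunoproteasome subunit, rose by 9.56, H2-K1 of MHC class I by 8.22 and B2m, its light chain, by 6.75 at 48 h, and Cd274 (PD-L1) by 8.56 at 8 h.

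Serpins of other clades and candidate target proteases made up the last lists. Of 11 tested serpins (21 listed), 1 was higher at 1 h, 4 were higher and 1 lower at 8 h, and 2 were higher and 3 lower at 48 h (16.9% and 19.9% of all genes), with a median of 0.11 at 8 h. Serping1, the C1 inhibitor of complement, rose by 3.93 ± 0.43 at 1 h and 10.27 ± 0.31 at 48 h, from 0.113 to 163.4 CPM in the mean at the latter time. Serpinb9, an inhibitor of granzyme B, rose by 5.17 ± 0.25 at 24 h, and Serpinb8 by 2.56 ± 0.46 at 8 h. Of 6 tested proteases (17 listed), 1 was higher and 3 were lower at 48 h, among them urokinase gene Plau, which fell by 2.94 ± 0.37, and cathepsin genes Ctsl and Ctsb, which fell by 0.45 and 0.38. Plat, tissue plasminogen activator, rose by 0.89 ± 0.10 at 8 h.

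Markers of other cells were read beside these results. The 10 astrocyte markers summed to 556.3 to 617.3 CPM at 8 h of IFN-gamma against 375.1 to 499.0 CPM untreated. At that time 1 was called higher (Slc1a3, a glutamate transporter, at 1.03 ± 0.15) and 1 lower. Within the list the changes went both ways: at 48 h Sox9 was called higher (1.82), and Fgfr3 (-1.80) and Aqp4 (-1.17) were called lower. At 8 h the 12 microglia markers summed to 6.39 to 7.10 CPM against 4.66 to 6.71 CPM. Of these, Aif1, Csf1r, C1qb, C1qc and Tyrobp had no read in the IFN-gamma 8 h group. Others on the list were called higher: Cd68 by 0.53 at 24 h (edgeR adjusted p = 0.00893) and P2ry12 by 1.30 ± 0.21 at 8 h (8.97e-06). The 10 endothelial, mural and fibroblast markers summed to 4.42 to 6.50 CPM against 0.714 to 1.47 CPM, with Lum, a proteoglycan gene, going from 0.162 to 4.82 CPM and Cldn5 and Cdh5 at 0. The 9 neuron markers summed to 314.4 to 368.1 CPM against 73.2 to 82.8 CPM, of which Tubb3, a tubulin gene, was 293.6 CPM. Their part in the Serpina3 results was not tested. Of the 10 oligodendrocyte lineage markers 3 were lower at 8 h, 5 lower at 24 h, and 2 higher and 4 lower at 48 h (12.1%, 10.5% and 19.9% of all genes were lower), among them the myelin gene Mbp, which fell by 2.93 ± 0.61 at 48 h. The lineage factor Sox10 gave -0.01 at 8 h (adjusted p = 0.969) and the progenitor receptor Pdgfra fell by 0.88 ± 0.17.

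Genes most like each member were taken by Pearson r of log2 CPM over all 40 libraries, as a description, since the libraries share their groups. For Serpina3f these were Igtp (0.992), Irgm2 (0.992) and Irf9 (0.990), the first pair immunity-related GTPases and the last a STAT partner. For Serpina3i they were Irgm1 (0.986), Trim21 (0.968) and Igtp (0.966). Serpina3g was nearest to Icam1 (0.911), Tceal9 (0.904) and Tcf7 (0.899), and Serpina3h to Ripk1 (0.849), Prdm1 (0.845) and Irf1 (0.838). Serpina3n was nearest to Slc14a1 (0.965), a urea transporter, Tuba1a (0.954), a tubulin, and Aldh1b1 (0.950). Between members r was 0.961 for Serpina3f and Serpina3i and 0.282 for Serpina3f and Serpina3n.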

How the data were processed

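The sources used here do not give strand, aligner settings, genome build or annotation. STAR, featureCounts, kallisto and edgeR are named, without versions, per the submitters' processing notes. The authors deposited a table of raw counts per Ensembl gene and a table of estimated counts per Ensembl transcript, both for 40 libraries. Symbols and gene models came from GENCODE M21 (38872 of 39056 gene identifiers had a symbol), and promoters from RefSeq.

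Gene counts were filtered by expression and TMM-scaled, and 1 quasi-likelihood model over the 10 groups (30 residual degrees of freedom, prior count 0.125) was fitted with edgeR 4.0.16 in R 4.3.3. P-values were adjusted by Benjamini-Hochberg over all 15135 tested genes, and a gene was called at an adjusted p under 0.05. Estimated counts were rounded for that check. Intervals of read ratios (95%) cover counting error only. Those of log2 fold changes (95%) used the SE and a t value on 30 degrees of freedom, without adjustment for the number of genes. The SE was worked back from the test, as the absolute log2 fold change over the square root of the F statistic. It is therefore approximate, and unreliable for changes near 0 from few reads. Replicate pairs differed beyond sampling noise (the lowest chi-square per degree of freedom was 6.04), and all 40 libraries counted separately. This check cannot tell separate cultures from separate preparations of 1 culture. Depth was 13165483 to 22651092 reads on genes. Sequences were compared with Python 3.11.15 and Biopython 1.88. The scripts were tested on simulated data.

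The members and lists were chosen with earlier results of these data known. Besides the members, up to 4 genes per list were named, those with the largest called change under IFN-gamma that reached 1 CPM in a group, together with Stat3, Irf1, Socs3, Cebpd, C4b, Serping1, Gfap, Sox10 and Pdgfra, and the 3 genes most correlated with each member that reached 1 CPM. Some genes under this rule are not reported here. The comparisons between IFN-gamma times and the thapsigargin interaction were added after seeing the data, as was leaving out the ribosomal-RNA-rich library or the libraries of low Y-linked level (under 50 CPM). Alternatives were other scalings, no filter, DESeq2 1.42.0, each range of library numbers alone or as a block, a Y-linked covariate, the isoform table, only the groups compared, and each replicate left out.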

Additional observations from a re-analysis of the deposited data

Results flagged for a closer look

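In 7 of 70 sets of 4 libraries 1 library stood apart from the other 3 by Dixon's test; chance does this in about 1 of 20 for continuous values, a rate that does not hold for libraries of a few tied reads. For Serpina3n this was untreated 48 h replicate 1, at 1189 CPM against 900.0 to 931.4 CPM. For Serpina3g it was untreated 1 h replicate 1 at 0.173 CPM (4 reads, 0 in the others), IFN-gamma 8 h replicate 2 at 2.41 CPM, and thapsigargin 1 h replicate 4 at 0.0534 CPM (1 read). For Serpina3m it was untreated 24 h replicate 4 at 0.339 CPM (8 reads), thapsigargin 8 h replicate 1 at 0.0505 CPM (1 read), and IFN-gamma 8 h replicate 2, low at 0.0 CPM. The sets of 0 and 1 reads reach the test's limit by their ties alone.

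Effects of a treatment differed between times by an interaction test in edgeR for 3 genes. The IFN-gamma effect was larger at 8 h than at 1 h for Serpina3f by 4.24 in log2 and for Serpina3i by 2.03. The thapsigargin effect at 8 h against 1 h was -1.55 for Serpina3i and -1.47 for Serpina3n.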

How the results depend on the processing

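Over the alternatives, the IFN-gamma calls of Serpina3f and Serpina3i against untreated cells held at all 4 times, and no called fold change turned its sign. Of 1838 recomputed fold changes 52 lost their call and 11 gained one. Members called higher at 1 h of IFN-gamma numbered 2 in place of 4 in library numbers 1 to 20 alone and without the libraries of low Y-linked level, and 2 to 4 leaving out single libraries. DESeq2 gave no adjusted p there for Serpina3g and Serpina3h. At 24 h they were 2 in numbers 1 to 20. At 48 h they were 2 in numbers 21 to 40, with only the groups compared, and without the libraries of low Y-linked level. Members called lower at 48 h numbered 1 in place of 0 with no filter, and 0 to 1 leaving out single libraries. Against thapsigargin at 1 h, 2 in place of 4 were higher in numbers 1 to 20. From untreated 1 to 24 h the 1 call was 0 in numbers 1 to 20 and in the isoform table, and 0 to 1 leaving out single libraries. From 8 to 24 h of IFN-gamma 3 members were lower, in place of 0, with only the groups compared. From 24 to 48 h, 1 was higher and 1 lower, in place of 0, in numbers 21 to 40, and 0 to 1 each leaving out single libraries. The IFN-gamma effect at 8 h against 1 h was called for 1 member in place of 2 in either range of numbers and with only the groups compared, and for 1 to 2 leaving out single libraries. The cause was not tested, beyond the fewer samples in several of these fits. Depth limits Serpina3c, Serpina3g, Serpina3h and Serpina3m. No paired analysis was possible because replicate numbers follow accession order and the labels name no pairs.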
